A study of Mus musculus with 6 samples.

Results

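The 10 genes described here are 7 protein arginine methyltransferase (PRMT) genes, Prmt1, Prmt2, Prmt3, Prmt5, Prmt6, Prmt7 and Carm1, and 3 genes of PRMT5 cofactors, Wdr77, Clns1a and Riok1, chosen by name out of 19938 genes that could be read from a probe set paired with 1 gene symbol. Each of the 10 was found, with 1 such probe set per gene. PRMTs transfer methyl groups from S-adenosylmethionine to arginine side chains of histones, RNA-binding proteins and transcription factors. Type I enzymes (PRMT1, PRMT2, PRMT3, CARM1 and PRMT6) leave an asymmetric dimethyl mark, PRMT5 leaves a symmetric one, and PRMT7 adds a single methyl group. PRMT5 works in a complex with the WD-repeat protein WDR77, also called MEP50, and takes its substrates through adaptors that compete with each other, among them CLNS1A (pICln), which presents the Sm proteins of the spliceosome, and RIOK1, which presents other proteins such as nucleolin. In lymphocytes PRMT5 is required for development and proliferation, and in mouse B-cell lymphoma it is known to act with MYC in keeping splicing accurate. p53 is one of its substrates, which is why the enzyme belongs among the p53 modifiers that the study examined.

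Total RNA of whole thymus was hybridised to Affymetrix mouse gene arrays, 1 array for each of 3 RUNX2/MYC mice (genotype CD2-Myc/CD2-Runx2, background strain labelled C57BL6/CBA) and 3 wild-type (WT) mice (labelled C57/CBA), and the mice of both groups were 10 days old. In RUNX2/MYC mice the control elements of the T-cell surface gene CD2 drive both transgenes in lymphoid cells, and the thymus at this age holds a premalignant thymocyte population beside normal lymphocytes. Mice with only 1 of the transgenes were not analysed here, so the effects of MYC and RUNX2 cannot be told apart. The replicates are labelled as biological, without a statement of litter or batch, and the p-values measure the spread between these arrays. Littermates served as genotype controls, according to the methods. A value is the log2 signal of a probe set, so that a difference of 1 is a doubling. A gene is said to pass where limma's p, adjusted by Benjamini-Hochberg over every probe set, is below 0.05. Signals of different probe sets depend on their probes, and levels are therefore compared between groups and never between genes.

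Runx2 signal separated the groups, its probe set (named in the study's own gene list and not in the platform annotation used here) having log2 signals of 11.73, 11.78 and 11.96 in RUNX2/MYC thymus and of 7.93 to 7.94 in WT thymus. The endogenous Myc probe set, which need not read the MYC transgene, averaged 10.65 ± 0.20 in RUNX2/MYC thymus and 11.13 ± 0.13 in WT thymus (SD, n = 3 each; adjusted p = 0.119). Genes that define thymocytes gave high signals on all arrays, the mean log2 signal of 14 of them lying at 11.32 to 11.62 in RUNX2/MYC and at 11.56 to 11.69 in WT. None of the 14 passed. Cd4 (-0.74), Rag1 (-0.62), Rag2 (-0.55) and Dntt (-0.52) were lower in every RUNX2/MYC array than in every WT array. These are 4 of 14, beside 10.1% of all probe sets. Cd3d (0.32) and Zap70 (0.30) were higher in every RUNX2/MYC array, 2 of 14 beside 14.3% of all probe sets, which is at the background. The other thymocyte genes overlapped between the groups. The first principal component of all probe sets held 60.5% of the variance, and the groups overlapped on it. Replicate 1 of RUNX2/MYC (-6.79) and replicate 3 of WT (5.15) had middle scores in reversed order, with the other RUNX2/MYC arrays at 39.4 and 45.2 and the other WT arrays at -45.9 and -37.0. RUNX2/MYC replicate 2 stood apart by adipocyte genes, whose mean over 12 genes was 8.17 there and 7.02 to 7.12 in the other RUNX2/MYC arrays, against 6.89 to 7.28 in WT. Results are given below with and without these arrays.

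MYC binds the E-box CACGTG and RUNX proteins bind TGTGGT or, less well, TGCGGT, and the promoter windows of the genes are shown because both transgenes encode such factors. Windows of 300 bases, from 250 before to 50 after the annotated transcription start, were found for 9 of the 10 genes in RefSeq (GRCm38.p6). The PRMT5 complex genes are printed whole, 5′ to 3′ on the strand of the gene, with each CACGTG and each RUNX core (TGTGGT or TGCGGT, or the same letters on the other strand, ACCACA or ACCGCA) in capitals. They lie at chr14:54517421-54517720 on the minus strand (Prmt5), chr3:105959248-105959547 on the plus strand (Wdr77) and chr7:97696407-97696706 on the plus strand (Clns1a).
Prmt5: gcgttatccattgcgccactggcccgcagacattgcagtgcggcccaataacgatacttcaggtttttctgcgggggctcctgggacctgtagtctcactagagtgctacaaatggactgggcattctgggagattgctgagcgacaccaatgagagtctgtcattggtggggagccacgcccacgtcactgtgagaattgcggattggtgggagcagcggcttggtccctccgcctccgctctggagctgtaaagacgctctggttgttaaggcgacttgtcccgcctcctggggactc
Wdr77: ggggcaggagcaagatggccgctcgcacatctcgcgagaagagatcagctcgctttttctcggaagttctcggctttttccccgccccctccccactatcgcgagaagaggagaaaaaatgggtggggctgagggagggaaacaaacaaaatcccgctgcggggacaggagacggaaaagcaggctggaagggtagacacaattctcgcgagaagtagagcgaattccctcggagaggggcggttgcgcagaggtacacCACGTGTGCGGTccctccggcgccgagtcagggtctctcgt
Clns1a: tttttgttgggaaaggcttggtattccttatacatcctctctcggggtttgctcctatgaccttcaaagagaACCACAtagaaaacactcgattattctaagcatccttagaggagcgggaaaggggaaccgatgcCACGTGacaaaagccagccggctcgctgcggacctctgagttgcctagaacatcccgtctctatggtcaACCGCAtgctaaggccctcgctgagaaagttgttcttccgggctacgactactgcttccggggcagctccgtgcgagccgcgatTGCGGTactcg
The 30 bases around the E-box, here alone in capitals, of Prmt1 (chr7:44986584-44986613, minus strand) and Prmt3 (chr7:49778333-49778362, plus strand) are set below for comparison.
Prmt1: acccaatcgtcaCACGTGctgggtgagaca
Prmt3: gccccctacgccCACGTGacccggaagcgc
CACGTG was thus found in the windows of 4 of 9 genes (Prmt1, Prmt3, Wdr77 and Clns1a), where 7.15% of all 32851 windows and 9.5% of the 15614 measured genes with a window hold it. A RUNX core was found in those of 5 of 9 (Prmt6, Prmt7, Wdr77, Clns1a and Riok1), where 22.4% of windows and 24.2% of measured genes hold one. Both were present in Wdr77 and Clns1a. In Wdr77 the E-box, bases 10 to 15 after the start, is followed without a gap or an overlap by TGCGGT, and this arrangement, searched after it was seen, occurs in 2 windows of 32851 (0.00609%). The windows of Prmt5 and Prmt2 hold none of these letters, and no window was found for Carm1. A list of sites that the study compiled for genes changed on these arrays gives for Prmt1 a MYC-type site ggCACATGgg and a RUNX-type site aggCCACAaga (cores in capitals), neither of which lies within the 300 bases searched. A match is a description of letters and does not show that a factor is bound.

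Prmt5, the gene of the main symmetric arginine methyltransferase, was higher in RUNX2/MYC thymus. Its log2 signals were 11.43, 11.46 and 11.43 in RUNX2/MYC replicates 1 to 3, against 10.72, 10.65 and 10.78 in WT replicates 1 to 3. The arrays of the groups did not overlap, and the RUNX2/MYC arrays lay within 0.026 of each other. The means were 11.44 ± 0.014 in RUNX2/MYC and 10.72 ± 0.064 in WT (SD, n = 3 each), a log2 fold change of 0.72 (1.65-fold; standard error 0.081, 95% interval 0.53 to 0.91, adjusted p = 0.0159).

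Wdr77, the gene of the obligate partner of PRMT5, rose by a similar amount. Its log2 signals were 10.72, 10.70 and 10.86 in RUNX2/MYC thymus and 10.08, 9.91 and 10.08 in WT thymus, again with no overlap. The log2 fold change was 0.74 (1.67-fold; standard error 0.096, adjusted p = 0.0219). A second probe set, which the annotation assigns to both Wdr77 and its neighbour Ovgp1 and which was left out of the counts, had 7.56, 7.32 and 7.63 in RUNX2/MYC thymus, against 7.28, 7.35 and 7.21 in WT thymus, and did not pass (log2 fold change 0.23, adjusted p = 0.271).

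The substrate adaptors of PRMT5 did not pass the test. Clns1a, whose product hands Sm proteins to PRMT5, was at 10.30, 10.43 and 10.22 in RUNX2/MYC thymus, against 9.86, 9.74 and 9.96 in WT thymus. Its groups did not overlap, and its log2 fold change was 0.47 (95% interval 0.23 to 0.70, adjusted p = 0.0749). Riok1, the gene of the competing adaptor, was at 8.80, 9.21 and 9.10 in RUNX2/MYC thymus, against 8.51, 8.69 and 8.97 in WT thymus. WT replicate 3 lay above RUNX2/MYC replicate 1, and the log2 fold change of 0.32 had a 95% interval that included 0 (-0.052 to 0.68, adjusted p = 0.279). Riok1 also had the widest range among the 10 genes within each group, 0.40 in RUNX2/MYC and 0.45 in WT.

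Among the type I enzymes, Prmt1, Carm1 and Prmt3 rose. Prmt1, which carries out most asymmetric arginine methylation in mammalian cells, was at 9.85, 9.84 and 9.73 in RUNX2/MYC thymus, against 9.30, 9.22 and 9.32 in WT thymus. The lowest RUNX2/MYC array lay 0.42 above the highest WT array, and the log2 fold change was 0.53 (standard error 0.084, adjusted p = 0.0351). Carm1, the gene of a transcriptional coactivator also called PRMT4 that methylates histone H3 and the poly(A)-binding protein, was at 10.54, 10.41 and 10.56 in RUNX2/MYC thymus and at 9.74, 9.75 and 9.94 in WT thymus. All 3 RUNX2/MYC arrays were above all 3 WT arrays, and the log2 fold change was 0.70 (standard error 0.097, adjusted p = 0.0253). Prmt3, whose product is cytosolic and methylates the ribosomal protein RPS2, was at 9.73, 9.88 and 9.92 in RUNX2/MYC thymus, against 8.87, 9.11 and 9.31 in WT thymus. It had the largest log2 fold change of the 10 genes, 0.74 (standard error 0.13, adjusted p = 0.0451), and its 95% interval of 0.43 to 1.05 held the values of Wdr77, Prmt5 and Carm1.

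Prmt6 and Prmt2, the other type I genes, did not pass. Prmt6, whose product methylates the tail of histone H3, was at 8.40, 8.54 and 8.24 in RUNX2/MYC thymus, against 8.14, 8.01 and 8.19 in WT thymus. The groups were 0.053 apart at their nearest arrays, and the log2 fold change was 0.28 (95% interval 0.027 to 0.54, adjusted p = 0.209). Prmt2, which codes for a weakly active enzyme with an SH3 domain, was the only one of the 10 with a negative log2 fold change, -0.10 (95% interval -0.32 to 0.11, adjusted p = 0.485). Its log2 signals of 7.61, 7.73 and 7.64 in RUNX2/MYC thymus overlapped those of 7.73, 7.87 and 7.70 in WT thymus.

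Prmt7, the gene of the monomethylating enzyme, was higher in RUNX2/MYC thymus, at 9.30, 9.40 and 9.40 against 8.71, 8.70 and 8.80 in WT thymus. The groups were 0.50 apart at their nearest arrays, and the log2 fold change was 0.63 (standard error 0.084, adjusted p = 0.0230).

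**Figure D1:**
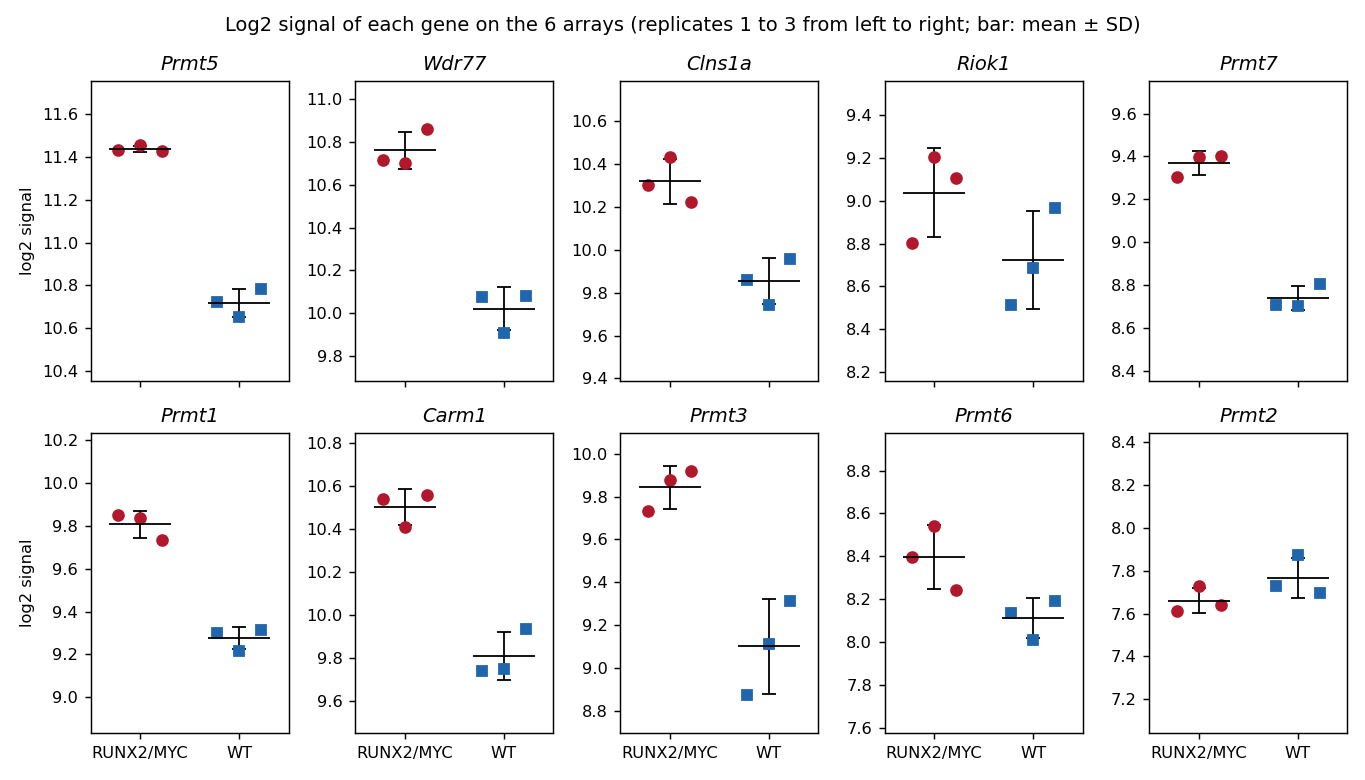
Log2 signal (vertical axis) of the 10 genes in RUNX2/MYC (red circles) and WT (blue squares) thymus, replicates 1 to 3 from left to right, with the mean and SD as black bars, every panel spanning the same number of log2 units. The groups do not overlap for 8 of the 10 genes, and overlap for Riok1 and Prmt2.

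Of the 10 genes, 6 therefore passed as higher (Prmt5, Wdr77, Prmt7, Prmt1, Carm1 and Prmt3), 0 passed as lower and 4 did not pass. Over all 35556 probe sets 1.68% were higher and 0.127% lower by the same rule. These include 12146 probe sets with no symbol. Over the 19938 genes, each read from 1 probe set, 452 (2.27%) were higher and 19 lower. Before adjustment, with p under 0.05, 8 of the 10 were higher and 0 lower, where 12% of all probe sets were higher and 9.27% lower. The methods' test with q values called 5 higher (all but Prmt3) and 0 lower, where it called 3.41% of all probe sets higher and 0.695% lower. The RUNX2/MYC arrays lay above all WT arrays in 8 of 10 genes, beside 14.3% of all probe sets, and below all WT arrays in 0 of 10, beside 10.1% of all probe sets. The log2 fold change was positive in 9 of 10, beside 42.3% of all probe sets. The median log2 fold change of the 10 genes was 0.58, beside -0.051 over all probe sets. Since the genes were chosen with results of these arrays known, the counts are a description.

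**Figure D2:**
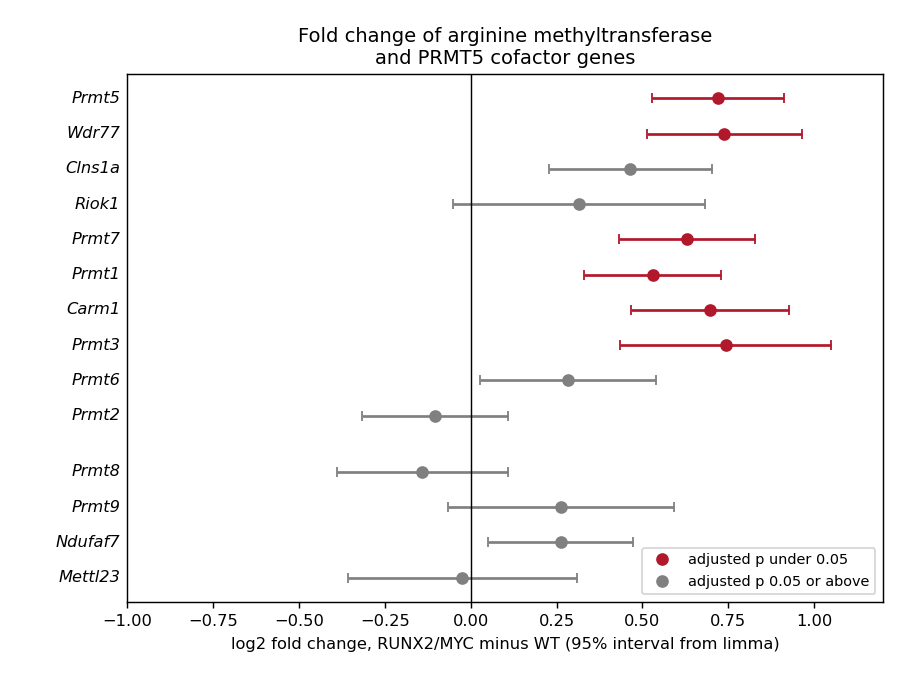
Log2 fold change (horizontal axis, RUNX2/MYC minus WT) with its 95% interval from limma for the 10 genes and, below the gap, for 4 further arginine methyltransferase genes. Red marks an adjusted p under 0.05, reached by 6 of the 10 genes and by none of the further 4.

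The calls of the 6 genes depended on which array was left out. When RUNX2/MYC replicate 1 was left out the same 6 genes passed, and without WT replicate 3 all of them but Prmt1 did (adjusted p = 0.0545). Leaving out replicate 2 or 3 of RUNX2/MYC, or replicate 1 or 2 of WT, left none of the 10 passing in limma or by the methods' test, while 7 or 8 were higher with p under 0.05 before adjustment. In these fits the smallest adjusted p of the 10 genes ran from 0.0773 to 0.119, and over all probe sets only 3 or 4 were called. The log2 fold change of Prmt5 ran from 0.69 to 0.75 over the 6 fits, that of Prmt7 from 0.61 to 0.66, that of Wdr77 from 0.68 to 0.77 and that of Prmt3 from 0.63 to 0.85. Among the genes that did not pass, Riok1 ran from 0.21 to 0.44, Prmt6 from 0.21 to 0.36, Clns1a from 0.41 to 0.52 and Prmt2 from -0.14 to -0.051, and none changed sign.

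**Figure D3:**
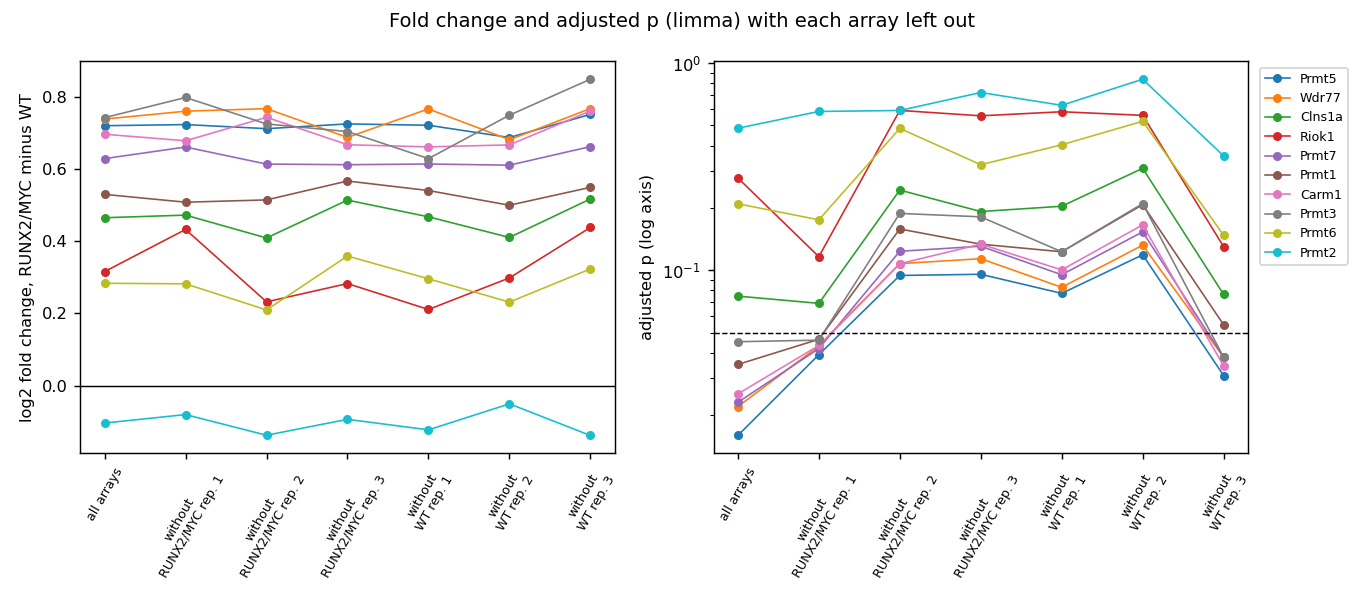
Log2 fold change, RUNX2/MYC minus WT (left), and adjusted p from limma on a log axis (right) of the 10 genes with all arrays and with each array left out in turn, the dashed line marking 0.05. The fold changes of Prmt5 stay between 0.69 and 0.75, while the adjusted p of every gene lies above 0.05 in 4 of the 6 reduced fits.

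The arrays of a group were not alike in these genes. Within WT, replicate 3 was the highest array for 9 of the 10 genes, Prmt2 being the exception, and replicate 2 the lowest for 6. Within RUNX2/MYC, replicate 2 was the highest for 5 genes and replicate 3 for 4. The mean log2 signal of the 10 genes was 9.67, 9.76 and 9.71 in RUNX2/MYC replicates 1 to 3, against 9.17, 9.17 and 9.30 in WT replicates 1 to 3, so that WT replicate 3, which lay towards the RUNX2/MYC arrays on the first principal component, was also the WT array nearest to them here. RUNX2/MYC replicate 2 held the adipocyte signal, and the median log2 fold change of the 10 genes was 0.56 without that array.

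Markers of other cell types of the organ differed between the groups as well. In a bulk tissue, fewer cells of a type and less RNA per cell cannot be told apart. Of 12 measured genes of thymic epithelium none passed, although 6 were lower and 0 higher with p under 0.05 before adjustment (9.27% of all probe sets were lower) and 3 were lower by the methods' test (0.695% of all probe sets). Their mean log2 signal was 9.63 to 9.79 in RUNX2/MYC, against 9.97 to 10.12 in WT. None of 11 genes of dendritic cells and macrophages passed, and 5 were lower and 0 higher with p under 0.05 before adjustment. Their mean was 8.65 to 8.67 in RUNX2/MYC, against 8.87 to 8.94 in WT. That of 5 erythroid genes was 8.03 to 8.67 in RUNX2/MYC, against 7.69 to 7.93 in WT. The top of this range was RUNX2/MYC replicate 1, where Alas2 was at 10.91, beside 9.98 and 9.36 in the other RUNX2/MYC arrays. Of the erythroid genes Tfrc alone passed, as higher, beside 1.68% of all probe sets. Epb42 (-0.053) and Klf1 (-0.087) had negative log2 fold changes. The differences of Cd4, Rag1, Rag2 and Dntt (lower) and of Cd3d and Zap70 (higher), given above, stand beside the PRMT values in the same way. The mean of 14 genes of dividing cells overlapped between the groups, at 11.21 to 11.38 in RUNX2/MYC and 11.19 to 11.25 in WT. Of these genes 4 were higher in every RUNX2/MYC array than in every WT array and 0 lower, beside 14.3% and 10.1% of all probe sets. None passed, and 2 were higher and 0 lower with p under 0.05 before adjustment, beside 12% and 9.27% of all probe sets. The part of cell composition in the PRMT values was not tested.

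Of the 4 further arginine methyltransferase genes measured, 0 passed in limma and 0 by the methods' test, and 1 was higher and 0 lower with p under 0.05 before adjustment, beside 12% of all probe sets higher. Prmt9, the other gene of a symmetric methyltransferase, differed by 0.26 on the log2 scale (adjusted p = 0.302), as did Ndufaf7, which acts on complex I of mitochondria (0.26, adjusted p = 0.18). Prmt8, known mainly from brain, was at -0.14 (adjusted p = 0.425). The value of Mettl23 was -0.025 (adjusted p = 0.92), and its sign turned with median centring and without any of 3 single arrays.

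S-adenosylmethionine donates the methyl group, and its product S-adenosylhomocysteine, which inhibits methyltransferases, is cleared through adenosine and homocysteine. Of 11 genes listed for this cycle 9 were measured, and Mat2a and Ahcy are not among the 9. Of the 9, 2 passed, both higher, beside 1.68% of all probe sets. The list median was 0.41 on the log2 scale, with 8 values positive. The negative value was that of Mat1a (-0.25, adjusted p = 0.228). In 5 genes every RUNX2/MYC array lay above every WT array and in 1, Mat1a, below, beside 14.3% and 10.1% of all probe sets. Adk, adenosine kinase, was at 9.58, 9.80 and 9.75 in RUNX2/MYC thymus, against 8.65, 9.04 and 9.03 in WT thymus, which is a difference of 0.81 (standard error 0.13, adjusted p = 0.0385). Mtrr, which keeps methionine synthase active, was at 8.67, 8.97 and 8.95 in RUNX2/MYC thymus, against 8.20, 8.17 and 8.32 in WT thymus, which is a difference of 0.63 (standard error 0.11, adjusted p = 0.0461). With each array left out in turn, Adk passed in 2 of the 6 fits and Mtrr in 1. Neither gene's groups overlapped, and Mtap, whose product degrades the PRMT5 inhibitor methylthioadenosine, was higher by 0.45 without passing (adjusted p = 0.0564; chosen after its values were seen).

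The Sm proteins that PRMT5 methylates and the SMN complex that assembles them into spliceosomal particles were measured by 17 genes. None passed in limma, yet all 17 log2 fold changes were positive (0.15 to 0.72, median 0.34). Before adjustment 14 were higher and 0 lower with p under 0.05, beside 12% and 9.27% of all probe sets. The methods' test called 4 higher, beside 3.41% of all probe sets. The smallest p-values were those of Gemin4, a subunit of the SMN complex, at 0.60 (adjusted p = 0.0622), and of Strap, which binds that complex, at 0.39 (adjusted p = 0.0788). In 15 of the 17 genes every RUNX2/MYC array lay above every WT array, beside 14.3% of all probe sets. In 0 of them every RUNX2/MYC array lay below, beside 10.1%.

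RNA-binding proteins with methylated arginines were represented by 22 measured genes (median log2 fold change 0.20). Of these 1 passed, as higher, beside 1.68% of all probe sets. This was Fbl, the gene of the nucleolar methyltransferase fibrillarin, with log2 signals of 11.09, 11.02 and 11.07 in RUNX2/MYC thymus and 10.65, 10.56 and 10.57 in WT thymus, which is a difference of 0.47 (standard error 0.081, adjusted p = 0.0440). The call ended whichever single array was left out (adjusted p = 0.0512 to 0.231). The other genes of the list ran down to -0.072. With 22 genes, 1 call is near the background and is not read as a result about the list. Before adjustment 10 were higher and 0 lower with p under 0.05, beside 12% and 9.27% of all probe sets. The methods' test called 4 higher and 0 lower, beside 3.41% and 0.695% of all probe sets. In 12 of the 22 every RUNX2/MYC array lay above every WT array and in 0 below, beside 14.3% and 10.1% of all probe sets. The log2 fold change was positive in 20 and negative in 2, beside 42.3% of all probe sets positive.

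A mixed list of other substrates, 17 measured, had a median of 0.085. In it 2 genes passed as higher and 1 as lower, beside 1.68% and 0.127% of all probe sets. Cad, which starts pyrimidine synthesis and whose place among PRMT substrates is less sure than that of the others, was at 10.35, 10.21 and 10.28 in RUNX2/MYC thymus and at 8.97, 9.39 and 9.40 in WT thymus, a difference of 1.03 (adjusted p = 0.0230). Ruvbl1, an AAA+ ATPase that PRMT5 methylates, rose by 0.47 (adjusted p = 0.0455), and Runx1, a PRMT1 substrate, had a difference of -1.02 (adjusted p = 0.0234). With each array left out in turn, Cad and Runx1 each passed in 2 of the 6 fits and Ruvbl1 in 1. Of 14 genes of methylarginine readers, the demethylase candidate Jmjd6, dimethylarginine hydrolases and peptidylarginine deiminases none passed in limma, while 3 were higher and 0 lower with p under 0.05 before adjustment (12% and 9.27% of all probe sets) and 1 was higher by the methods' test (median -0.020). With 14 genes, these counts are near the background and are not read as a result. Jmjd6 had 0.41 (adjusted p = 0.0888), and the reader gene Snd1 0.42 (adjusted p = 0.116). Of 9 genes of PRMT partners and regulators none passed either, with 0 higher and 1 lower with p under 0.05 before adjustment (12% and 9.27% of all probe sets), a count near the background, and 0 by the methods' test (median -0.18). The gene with the smallest p among these was Btg1, whose product binds PRMT1, with -0.47 (adjusted p = 0.101), followed by the ubiquitin ligase gene Stub1 with 0.27 (adjusted p = 0.25). Over all lists 5 of 92 genes were higher and 1 lower, against 6 and 0 of the 10 PRMT and cofactor genes. Of all probe sets 1.68% were higher and 0.127% lower.

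**Figure D4:**
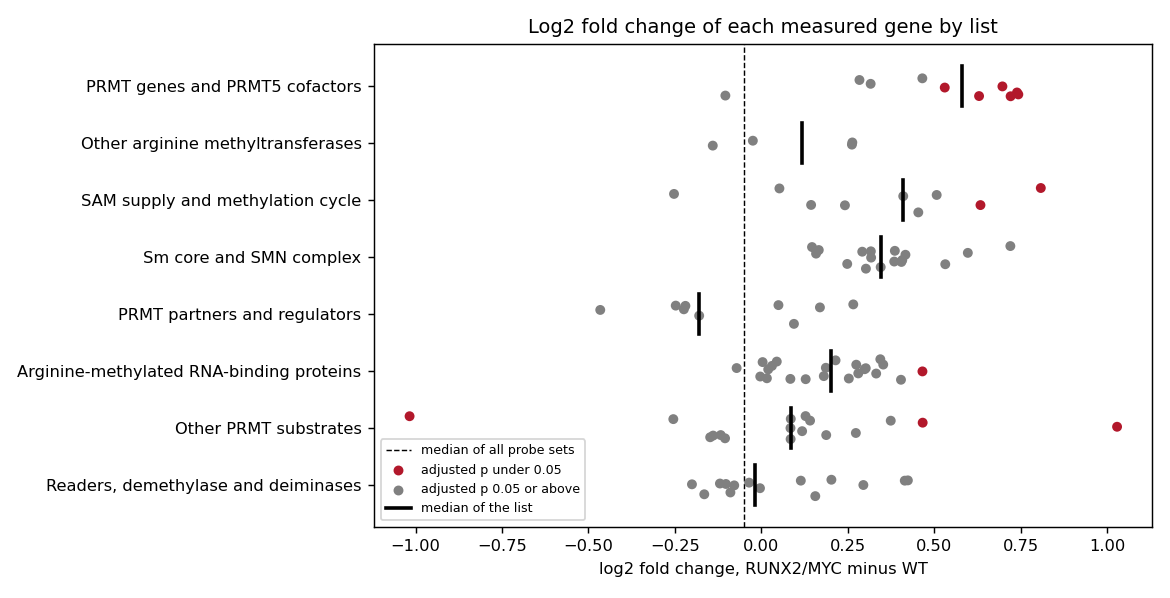
Log2 fold change, RUNX2/MYC minus WT (horizontal axis), of each measured gene of the 10 PRMT and cofactor genes and of 7 lists of the pathway (rows), with genes that passed in red. Black bars are list medians, 0.58 for the PRMT and cofactor genes, 0.41 for the methylation cycle and 0.34 for the Sm and SMN genes, and the dashed line is the median of all probe sets (-0.051).

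Among the 19938 genes, those whose profile over the 6 arrays was most like that of Prmt5 were Nifk, Eef1e1, Utp4, Bop1 and Ggct, by the root mean square difference of log2 signals after each gene was centred on its own mean (0.023, 0.031, 0.039, 0.043 and 0.043). Nifk, which encodes a nucleolar protein that binds the proliferation antigen Ki-67, averaged 10.99 ± 0.035 in RUNX2/MYC thymus and 10.25 ± 0.079 in WT thymus (SD, n = 3 each). Utp4 and Bop1 act in the making of ribosomes, Eef1e1 belongs to the aminoacyl-tRNA synthetase complex, and Ggct acts in glutathione turnover. The closest of the other PRMT and cofactor genes were Prmt7 in place 14 (0.058), Wdr77 in place 37 (0.065) and Carm1 in place 54 (0.070), while Riok1 (0.26) and Prmt2 (0.42) lay farthest off, in places 2766 and 10748. The measure contains the group difference itself and rests on 6 arrays, and it is given as a description.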

How the data were processed

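Total RNA from 3 RUNX2/MYC and 3 WT thymuses was profiled on Affymetrix MoGene-1 arrays. The authors deposited log2 signals, 1 column per array, with replicates not pooled. Affymetrix Expression Console 1.4 and RMA (background correction, normalization across arrays and a summary value per probe set) are credited in the submitters' processing notes. Partek Genomics Suite, with an adjustment for GC content, is the software given in the methods. RMA draws the probes of a probe set into 1 value, so isoforms are not resolved. Log2 signals ran from 3.75 to 14.56 and array medians from 7.31 to 7.49, and the number of arrays limits the precision.

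The deposited values were used without further scaling. Groups came from the genotype labels. The platform annotation paired 21789 of 35556 probe sets with 1 symbol, 1621 with several and 12146 with none, symbols were updated through Entrez IDs, and a gene was read from its brightest probe set of 1 symbol. Runx2 was located by its probe set number in the study's own gene list. The comparison of RUNX2/MYC with WT used limma 3.58.1 in R 4.3.3 (lmFit, eBayes, Benjamini-Hochberg adjustment over all probe sets, called at an adjusted p under 0.05). The code was checked on simulated data with noise independent between probe sets and arrays. That check cannot show how the calls behave where probe sets vary together from array to array. With 3 arrays a group, 10 splits exist and an exact permutation test of 1 value cannot fall below p = 0.1. Alternatives were the ANOVA with Storey q values that the methods name (called the methods' test), the same with Benjamini-Hochberg adjustment, other array scalings, a filter on dim probe sets, probe sets of 1 gene, an intensity trend, array weights, the replicate number as a block, the mean over a gene's probe sets, and leaving out each array. The genes described and the lists were chosen with earlier results of these data known. The genes named are the 10 PRMT and cofactor genes, every measured gene of the list of other arginine methyltransferases, in each other list up to 4 genes of the largest absolute log2 fold change that passed or, where none did, the 2 of smallest p, and the 5 genes most like Prmt5. Markers of thymocytes, thymic epithelium, dendritic cells and macrophages, B cells, erythroid cells, fibroblasts and endothelium, adipocytes and dividing cells were listed as well. Those of B cells (7 measured) and of fibroblasts and endothelium (12) had no call, with medians of -0.19 and -0.13. All log2 fold changes of both lists were negative. The B-cell mean was 7.37 to 7.54 in RUNX2/MYC, against 7.57 to 7.67 in WT, while the mean of fibroblasts and endothelium overlapped between the groups. Promoter windows were searched for exact letters on both strands.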

Additional observations from a re-analysis of the deposited data

How the results depend on the processing

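No log2 fold change of the 10 PRMT and cofactor genes changed sign under any alternative that was run. Prmt5 passed in all 12 alternatives that kept all arrays (adjusted p = 0.00239 to 0.0433), Prmt7 in 11, Wdr77 in 10, Carm1 and Prmt3 in 9 and Prmt1 in 8. Of the 10 genes, 6 were higher as reported. With the ANOVA and Benjamini-Hochberg adjustment 2 were higher (Prmt5 and Prmt7), beside 162 of 35556 probe sets. With 75th percentile centring 1 was (Prmt5), beside 209 of 35556. More passed in settings that also called more probe sets. With array weights 9 were higher (also Clns1a, Riok1 and Prmt6, adjusted p = 0.0119, 0.0284 and 0.0473). That setting called 5766 of 35556 probe sets higher and 7318 lower. With probe sets of 1 gene 7 were higher (also Clns1a, adjusted p = 0.0287), beside 1236 of 21789 probe sets. Leaving out 1 array gave 0 to 6. Their median log2 fold change of 0.58 was 0.66 under median centring, 0.48 under 75th percentile centring, 0.48 under quantile normalization and 0.45 under cyclic loess. It was 0.56 to 0.61 when 1 array was left out.

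Over all probe sets 596 were higher and 45 lower as reported, and over the pathway lists 5 genes were higher and 1 lower. The ANOVA with q values gave 1213 and 247 probe sets and 14 pathway genes higher. With Benjamini-Hochberg adjustment it gave 162 probe sets higher, 2 pathway genes higher and 0 lower. Median centring gave 915 probe sets and 8 pathway genes higher, and 75th percentile centring 209 and 1. Quantile normalization gave 98 probe sets lower and 3 pathway genes higher, and cyclic loess 124 lower, 3 pathway genes higher and 2 lower. The filter on dim probe sets gave 85 lower. Probe sets of 1 gene gave 1236 and 149 with 13 pathway genes higher and 2 lower, and the intensity trend 1054 and 104 with 8 pathway genes higher. Array weights, which ran from 0.42 (RUNX2/MYC replicate 1) to 3.26 (WT replicate 2), gave 5766 and 7318 with 43 pathway genes higher and 5 lower. Leaving out 1 array gave 3 to 872 probe sets higher and 0 to 718 lower, with 0 to 4 pathway genes higher and 0 to 1 lower. The cause of these shifts was not tested. Of 252 recomputed counts of single lists, 194 were within 1.5 times of the reported count.

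The log2 fold change of Mettl23, -0.025, turned to 0.059 under median centring. With single arrays left out it ran from -0.18 to 0.063, and it turned positive in 3 cases, at 0.0017 (RUNX2/MYC replicate 2 left out), 0.063 (WT replicate 1) and 0.039 (WT replicate 2). Whether the replicate numbers pair the samples is not known. The deviations of same-numbered arrays from their group means correlated at 0.50, -0.15 and 0.61. RUNX2/MYC replicate 2 correlated best with WT replicate 3. Such deviations cancel out within each group of 3 arrays, so these correlations cannot decide whether the samples are paired. With the replicate block the same 6 genes passed, with 1654 probe sets higher and 763 lower and 11 pathway genes higher and 2 lower.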

Other observations

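The E-box letters CACGTG were also counted over every measured gene with a promoter window, as a description with no test. Of 1483 genes that hold them, 69 passed as higher in RUNX2/MYC thymus (4.65%), and the median difference on the log2 scale was 0.040. Of 14131 genes that lack them, 298 passed as higher (2.11%), and the median was -0.067. Among the 6 PRMT and cofactor genes that rose, Prmt1, Prmt3 and Wdr77 have the letters, Prmt5 and Prmt7 do not, and Carm1 had no window, while Clns1a has them and did not pass.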
